A study of Mus musculus with 24 samples.

Results

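The genes of the cytosolic ribosomal proteins were followed in mouse liver across 3 genotypes. They were chosen by name: a probe set had to carry a single gene symbol made of Rpl, Rps or Rplp, a number and at most 1 letter of a, b, x, l or y, and each gene was read by the probe set with the highest mean over all arrays. This gave 58 genes of the 19938 with a single-symbol probe set, and they had 210 probe sets among 35556. The large 60S subunit had 34 of them, the small 40S subunit 21 and the P stalk of the large subunit 3. A further 16 ribosomal protein symbols, Rpl11 and Rps27 among them, stood only on probe sets shared by several genes and were not members.

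Liver RNA came from male mice of 24 weeks, 8 mice and 8 arrays per genotype, on standard chow. alb-SREBP-1a∆P mice overexpress in liver, from an albumin promoter that works in hepatocytes, the N-terminal domain of human SREBP-1a, the active form of a factor that switches on lipid synthesis, with its MAPK phosphorylation sites mutated. alb-SREBP-1a mice overexpress the same domain with those sites intact, and C57Bl6 mice carry no transgene. Both transgenic lines have a C57Bl6 background, and each is a single named line, so that line and transgene cannot be told apart. In whole liver RNA, fewer cells of a type and less RNA per cell cannot be told apart.

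A ribosome holds 1 copy of nearly every ribosomal protein, each bound to rRNA, and the P stalk on the 60S side calls in the elongation factors. The mRNAs of these proteins begin with a C followed by a run of pyrimidines, the 5′ terminal oligopyrimidine or TOP motif, through which mTORC1 and LARP1 set their translation together. Where this control acts on translation, mRNA levels do not report it. Mouse ribosomal protein genes also have many processed pseudogenes with nearly the same sequence, and which copy a probe set reads cannot be told apart here.

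Values are log2 levels as deposited after RMA, and changes are log2 fold changes ± SE from limma on 8 against 8 arrays, positive where the group named first was higher. A gene is said to have risen or fallen where its adjusted p (Benjamini-Hochberg over the 35556 probe sets) was under 0.05. Of the 58 genes 42 lay in the brightest decile of all probe sets, and 4 lay below the median level of 5.61. The arrays of alb-SREBP-1a∆P were flatter than the rest: the SD over all probe sets of an array was 2.02 to 2.09 in alb-SREBP-1a∆P, 2.14 to 2.23 in alb-SREBP-1a and 2.18 to 2.25 in C57Bl6. Array medians were 5.69 to 5.81 in alb-SREBP-1a∆P, 5.54 to 5.65 in alb-SREBP-1a and 5.55 to 5.65 in C57Bl6. The hepatocyte markers measured (6 of 8) were all above the median level, and the log2 of their summed signal was 15.9 to 16.1 in alb-SREBP-1a∆P, 16.0 to 16.2 in alb-SREBP-1a and 16.1 to 16.3 in C57Bl6. The 5 leukocyte markers summed to 8.48 to 9.06 in alb-SREBP-1a∆P, 8.73 to 8.97 in alb-SREBP-1a and 8.17 to 8.59 in C57Bl6, and 3 of them exceeded the median level. The 4 Kupffer cell markers measured of 5 summed to 10.05 to 10.90 in alb-SREBP-1a∆P, 10.1 to 10.8 in alb-SREBP-1a and 9.72 to 10.3 in C57Bl6, and the sums of endothelial, stellate and cholangiocyte markers overlapped between all genotypes. Against alb-SREBP-1a, though, 3 of 4 endothelial and 2 of 4 Kupffer cell markers fell in alb-SREBP-1a∆P, where 21 of the 58 genes and 21.4% of all probe sets also fell. There 1 leukocyte and 1 stellate marker fell, 1 stellate marker rose, and no hepatocyte or cholangiocyte marker passed. In alb-SREBP-1a∆P against C57Bl6 1 hepatocyte marker rose and 4 fell, and 2 leukocyte and 2 Kupffer cell markers rose. In alb-SREBP-1a against C57Bl6 1 hepatocyte, 1 leukocyte, 2 Kupffer cell and 1 endothelial marker rose, and 2 hepatocyte markers fell. The part of these differences in the results was not tested. The spread between these mice is all that the p-values measure.

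In both transgenic lines the ribosomal protein genes that passed the test went both ways, with more falling than rising in alb-SREBP-1a∆P and more rising than falling in alb-SREBP-1a. With alb-SREBP-1a∆P set against C57Bl6, 8 genes rose, 20 fell and 30 did not pass, beside 47.2% of all probe sets called, 27.0% higher and 20.2% lower. In alb-SREBP-1a against C57Bl6 10 rose, 3 fell and 45 did not pass, beside 10.8% called, 6.77% higher and 3.98% lower. Between the lines, alb-SREBP-1a∆P set against alb-SREBP-1a, 2 rose, 21 fell and 35 did not pass, beside 44.2% called, 22.8% higher and 21.4% lower. The median change of the 58 genes was -0.09 in alb-SREBP-1a∆P against C57Bl6, 0.04 in alb-SREBP-1a against C57Bl6 and -0.13 between the lines. Over all probe sets these medians were 0.11, 0.01 and 0.08. The comparisons share arrays in pairs, so their values stand side by side and are not independent. Few changes were large, since 1.5-fold was passed by Rpl36a and Rpl10l, both lower, in alb-SREBP-1a∆P against C57Bl6, by Rps10 in alb-SREBP-1a against C57Bl6 and by no gene between the lines.

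**Figure D1:**
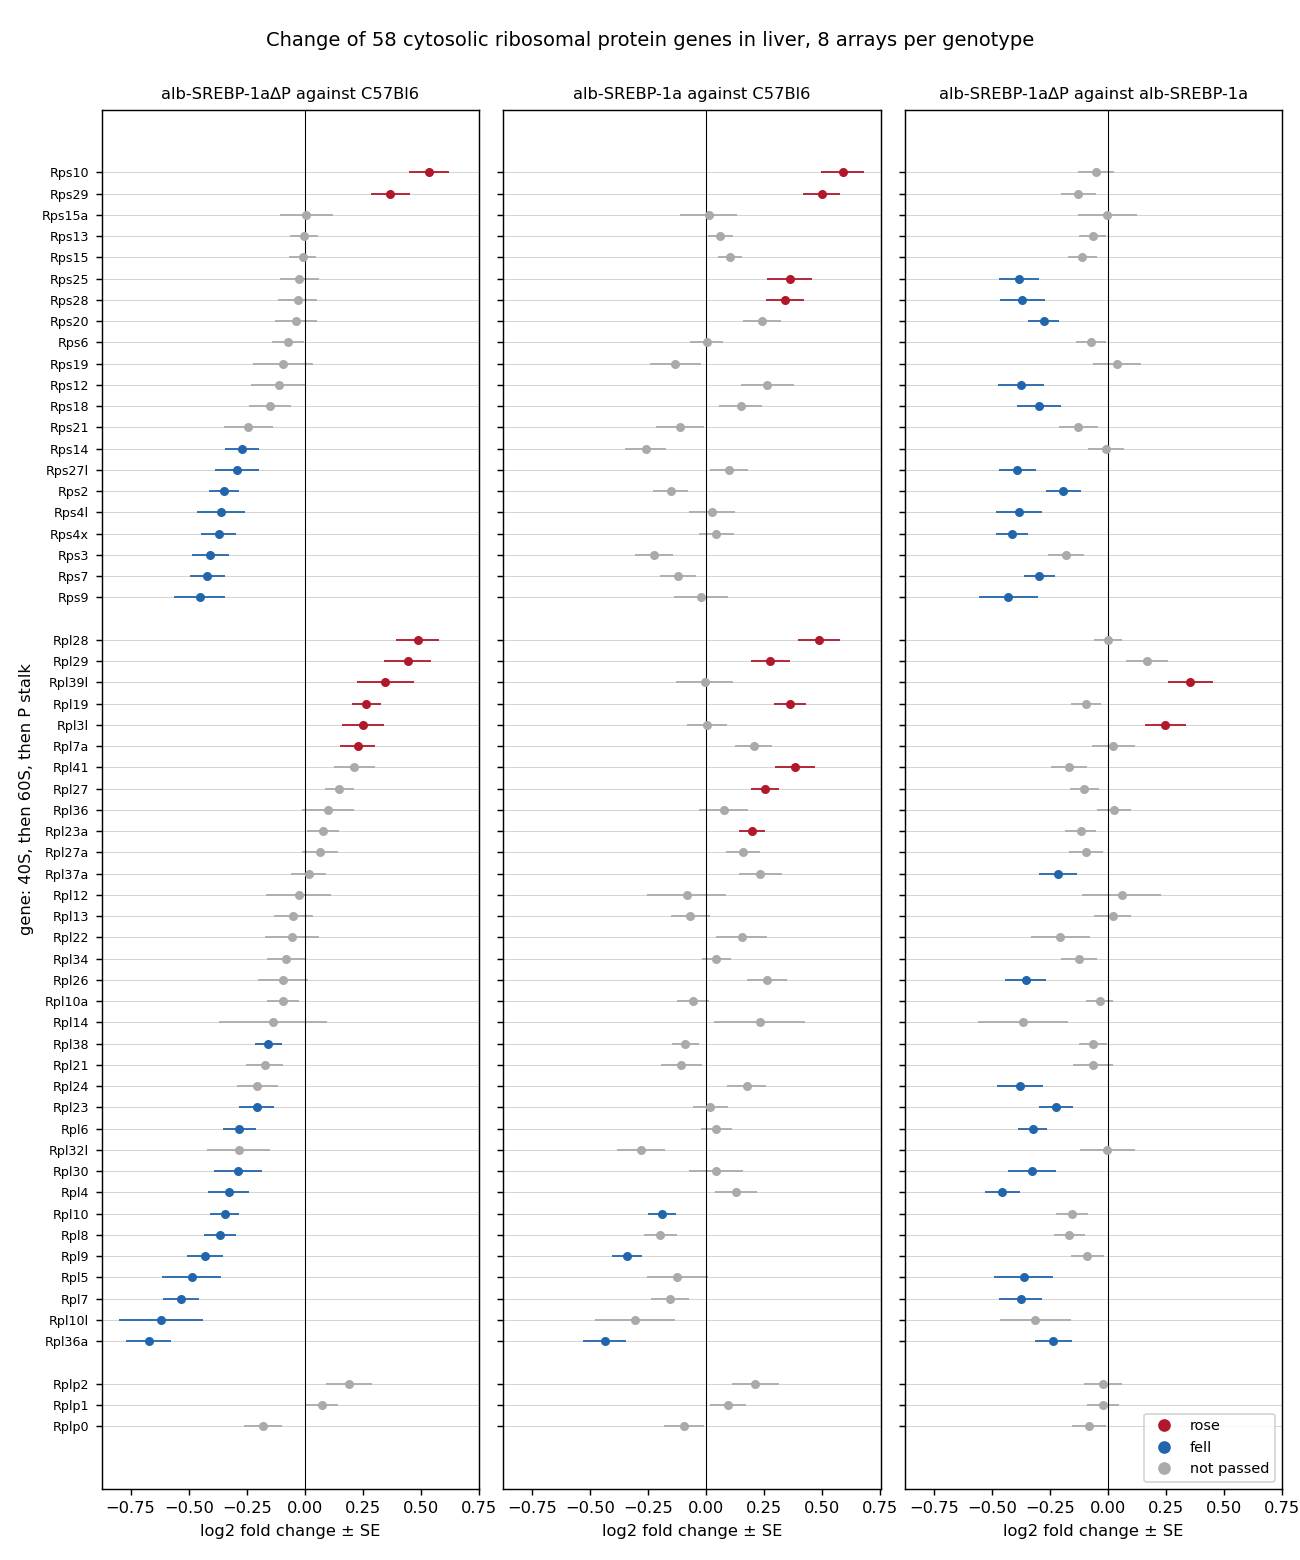
Log2 fold change ± SE of each of the 58 genes (down the page, by subunit and by the change in alb-SREBP-1a∆P against C57Bl6) in the 3 comparisons, coloured by the outcome of the test. Rps10 and Rpl28 stand at the upper end and Rpl36a at the lower end in both comparisons with C57Bl6, and no P stalk gene passed by the probe set plotted.

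The level of the ribosomal protein genes as a group depended on how arrays were brought to 1 scale. In alb-SREBP-1a∆P the change of a probe set varied with its brightness, with medians above 0 in dim deciles and the lowest, -0.29 against C57Bl6, in the ninth. In the brightest decile of all probe sets 457 rose and 1677 fell of 3556 against C57Bl6, with a median of -0.20. The 42 members in that decile had 6 that rose and 17 that fell, with a median of -0.13. Against alb-SREBP-1a that decile had 163 probe sets that rose and 1641 that fell (median -0.20), and its 42 members 0 and 18 (median -0.16). In alb-SREBP-1a against C57Bl6 the same decile had 502 and 516 (median -0.01), and its members 10 and 3 (median 0.08). Quantile normalization, centring on the array median and cyclic loess gave 11 higher and 13 lower, 3 and 31, and 12 and 7 members in alb-SREBP-1a∆P against C57Bl6. Over all 35556 probe sets these rescalings gave 4586 higher and 6701 lower, 4780 and 10194, and 5690 and 5427. Between the lines they gave 1 higher and 8 lower, 0 and 45, and 5 and 5 members. The counts over all probe sets there were 3421 higher and 4898 lower, 3582 and 11410, and 4025 and 3681. These rescalings shifted the median change over all probe sets by -0.14, -0.16 and -0.11 in alb-SREBP-1a∆P against C57Bl6, and by -0.10, -0.17 and -0.09 between the lines. In alb-SREBP-1a against C57Bl6 the member calls were 10 higher and 6 lower, 10 and 2, and 9 and 5. Beside them stood 2134 higher and 2001 lower, 2303 and 1144, and 2360 and 1793 over all probe sets. Rps13 alone had opposite calls, between the lines: -0.23 after centring (adjusted p = 0.00686) and 0.22 after cyclic loess (adjusted p = 0.0170). Thus a fall of the ribosomal protein genes as a group in alb-SREBP-1a∆P was not a result that held under all 4 scales. Genes whose call did hold are described first. How many of all probe sets held under all 4 scales was not counted.

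**Figure D2:**
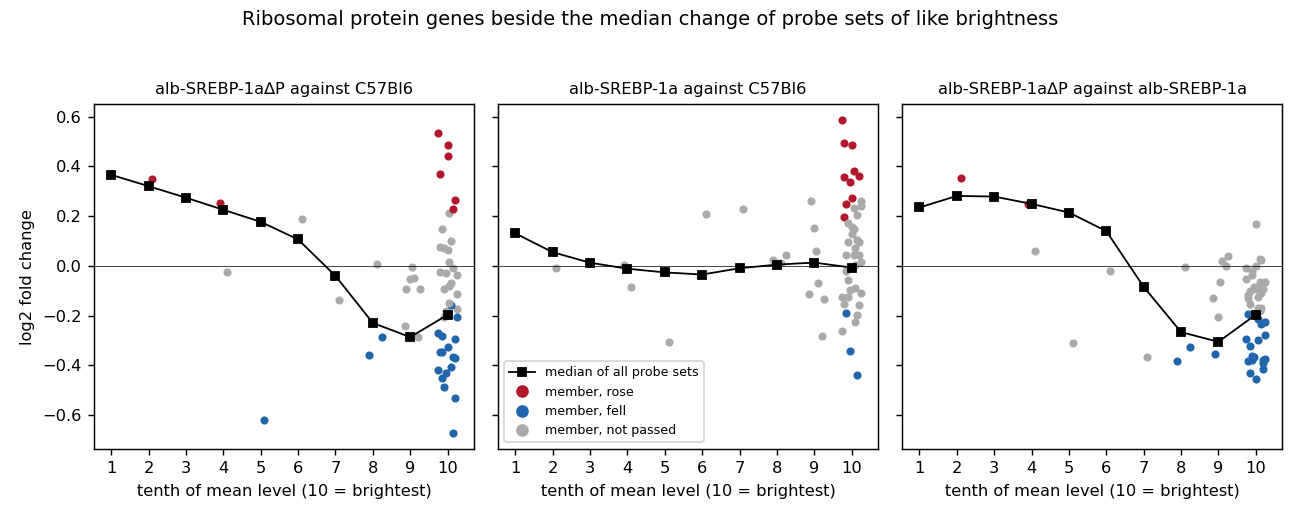
Log2 fold change of each of the 58 genes (points, coloured by the outcome of the test) against the decile of mean level it lies in, with the median of all probe sets of each decile as a line. In both comparisons of alb-SREBP-1a∆P the line runs from above 0 in dim deciles to its lowest point in the ninth, at -0.29 against C57Bl6 and -0.31 between the lines. It ends at -0.20 in the brightest one, where most members lie, while in alb-SREBP-1a against C57Bl6 it ends at -0.01.

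**Figure D3:**
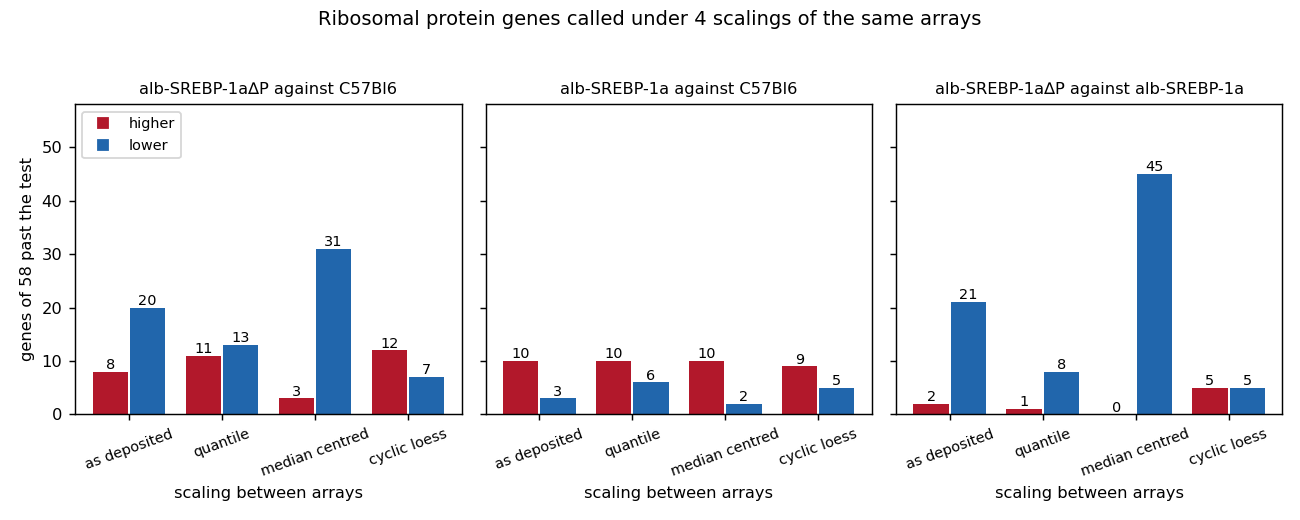
Number of the 58 genes past the test, higher and lower, as deposited and after 3 rescalings of the same arrays. In alb-SREBP-1a∆P against C57Bl6 the lower genes number 20 as deposited and 7 after cyclic loess, and in alb-SREBP-1a against C57Bl6 the higher genes number 9 or 10 throughout.

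Under all 4 scales Rps10, Rpl28 and Rpl29 rose in alb-SREBP-1a∆P against C57Bl6, and 8 genes rose in alb-SREBP-1a against C57Bl6: Rps10, Rpl28, Rps29, Rpl41, Rpl19, Rps25, Rps28 and Rpl27. Rps10, a protein of the 40S head near the path of the mRNA, had levels of 11.88, 12.02 and 12.15 (lowest, median and highest) in alb-SREBP-1a∆P, 11.88, 12.01 and 12.34 in alb-SREBP-1a and 11.21, 11.49 and 11.72 in C57Bl6. Every array of both lines was above every C57Bl6 array. The change was 0.53 ± 0.09 in alb-SREBP-1a∆P against C57Bl6 (adjusted p = 0.000106) and 0.59 ± 0.09 in alb-SREBP-1a against C57Bl6 (adjusted p = 0.000541), the highest of the members in both. Between the lines it was -0.05 ± 0.08 (adjusted p = 0.588). The other Rps10 probe sets differed by less, 0.29 and 0.38 in alb-SREBP-1a∆P, both called, and 0.23 and 0.35 in alb-SREBP-1a, where only the second was called.

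Rpl28 codes for a 60S protein that baker's yeast does not have. Its levels were 12.29, 12.37 and 12.49 in alb-SREBP-1a∆P, 12.22, 12.37 and 12.51 in alb-SREBP-1a and 11.55, 11.85 and 12.26 in C57Bl6. No alb-SREBP-1a∆P array overlapped with C57Bl6, and 7 of 8 alb-SREBP-1a arrays lay above all C57Bl6 arrays. It rose by 0.49 ± 0.09 in alb-SREBP-1a∆P (adjusted p = 0.000438) and by 0.49 ± 0.09 in alb-SREBP-1a (adjusted p = 0.00204), and its other 4 probe sets were called higher in both lines too. Rpl29, a 60S protein also known to bind heparan sulfate, had 9.21, 9.63 and 9.85 in alb-SREBP-1a∆P, 9.23, 9.39 and 9.61 in alb-SREBP-1a and 8.92, 9.11 and 9.45 in C57Bl6. Its change was 0.44 ± 0.10 in alb-SREBP-1a∆P against C57Bl6 (adjusted p = 0.00202). In alb-SREBP-1a it was 0.27 ± 0.08 (adjusted p = 0.0457), a call lost after quantile normalization and cyclic loess (adjusted p = 0.12 and 0.10). The groups overlapped, with 6 of 8 alb-SREBP-1a∆P and 3 of 8 alb-SREBP-1a arrays above all C57Bl6 arrays.

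Rps29, a small zinc-binding protein of the 40S head, had levels of 9.15, 9.34 and 9.52 in alb-SREBP-1a∆P, 9.26, 9.46 and 9.66 in alb-SREBP-1a and 8.69, 8.91 and 9.26 in C57Bl6. It rose by 0.50 ± 0.08 in alb-SREBP-1a (adjusted p = 0.000774) and by 0.37 ± 0.08 in alb-SREBP-1a∆P (adjusted p = 0.00205), where centring each array on its median ended the call. A single alb-SREBP-1a array and 3 alb-SREBP-1a∆P arrays fell within the C57Bl6 range. Rpl19, a 60S protein whose long helix bridges both subunits, had 12.26, 12.32 and 12.39 in alb-SREBP-1a∆P, 12.27, 12.42 and 12.68 in alb-SREBP-1a and 11.87, 12.08 and 12.20 in C57Bl6. All arrays of both lines were above all C57Bl6 arrays. The change was 0.36 ± 0.07 in alb-SREBP-1a (adjusted p = 0.00271) and 0.27 ± 0.06 in alb-SREBP-1a∆P (adjusted p = 0.0024), lost in alb-SREBP-1a∆P after centring or when the mean of its 7 probe sets was used. Rpl41, a very short basic peptide at the subunit interface, had 12.12, 12.47 and 12.57 in alb-SREBP-1a∆P, 12.43, 12.57 and 12.85 in alb-SREBP-1a and 11.97, 12.18 and 12.43 in C57Bl6. It rose by 0.38 ± 0.09 in alb-SREBP-1a (adjusted p = 0.00722) and differed by 0.21 ± 0.09 in alb-SREBP-1a∆P (adjusted p = 0.0577), both with overlap.

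Rps25 and Rps28, both of the 40S subunit, passed as higher in alb-SREBP-1a against C57Bl6 and not in alb-SREBP-1a∆P, and the difference between the lines was itself tested. Rps25 had levels of 10.53, 10.67 and 10.82 in alb-SREBP-1a∆P, 10.73, 11.02 and 11.30 in alb-SREBP-1a and 10.40, 10.73 and 10.93 in C57Bl6. It rose by 0.36 ± 0.10 in alb-SREBP-1a against C57Bl6 (adjusted p = 0.0232). Between the lines it fell by 0.38 (SE 0.09, adjusted p = 0.00256), a call lost after cyclic loess (adjusted p = 0.0848). Rps28 rose by 0.34 ± 0.08 in alb-SREBP-1a (adjusted p = 0.0139) and fell by 0.37 (SE 0.10, adjusted p = 0.00664) between the lines, a call lost after quantile normalization and cyclic loess (adjusted p = 0.105 and 0.355). The alb-SREBP-1a∆P and C57Bl6 ranges of both genes overlapped widely. These 2 genes were picked for description after their values were seen.

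**Figure D4:**
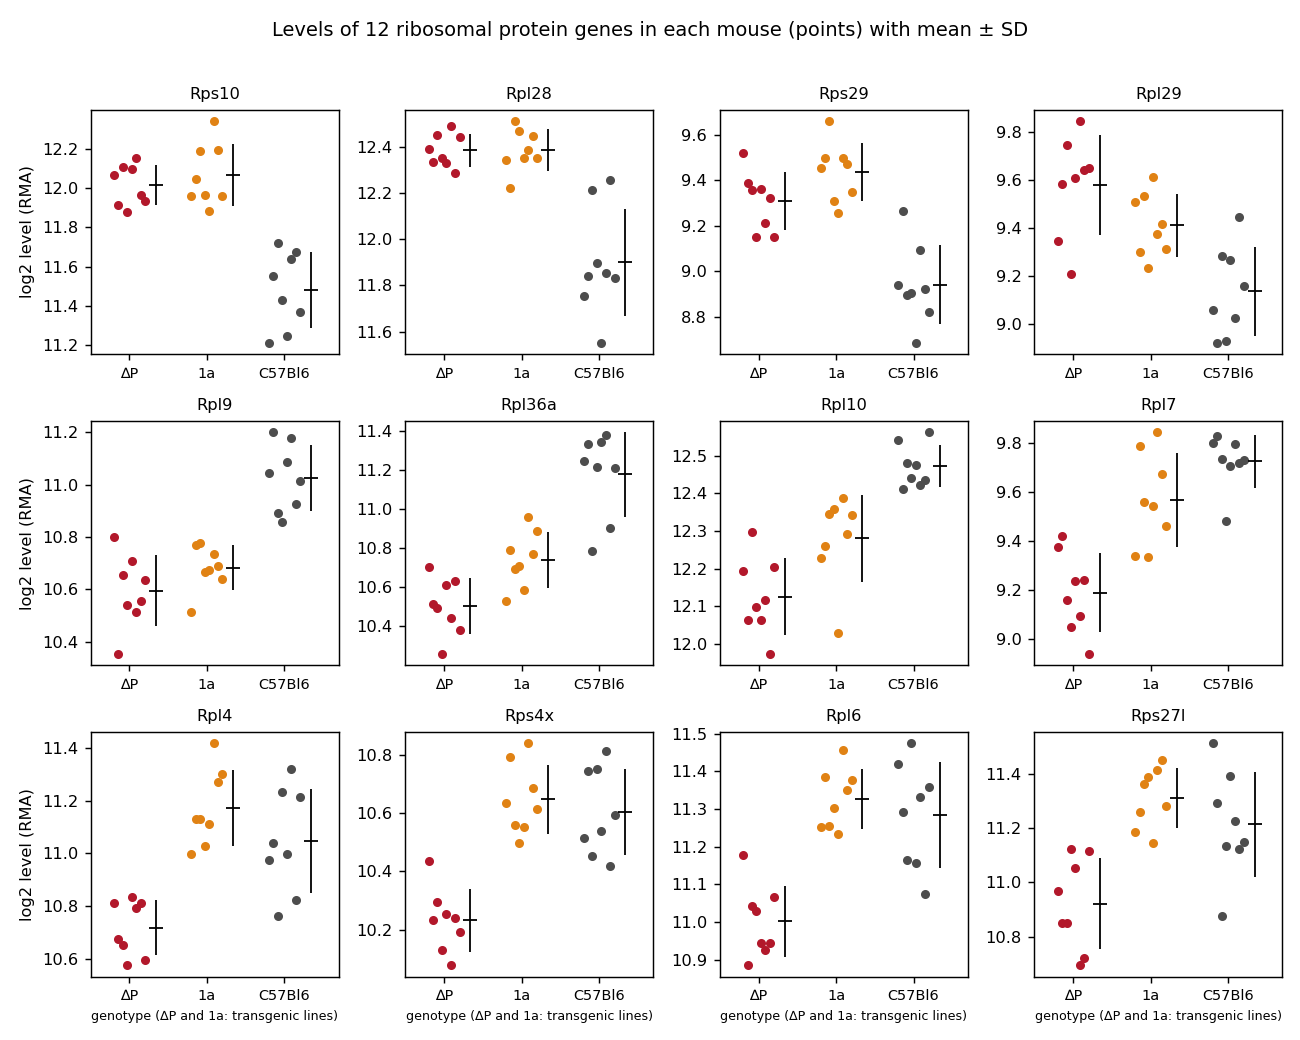
Log2 level of 12 ribosomal protein genes in each mouse (points), with mean ± SD (bars, n = 8), for alb-SREBP-1a∆P (∆P), alb-SREBP-1a (1a) and C57Bl6; each panel has its own axis. The upper row holds genes higher in both lines, the middle row genes lowest in alb-SREBP-1a∆P, and the lower row genes whose alb-SREBP-1a∆P arrays all lie below the alb-SREBP-1a arrays.

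Under all 4 scales Rpl36a and Rpl9 fell in both lines against C57Bl6, and Rpl10, Rps2, Rps7, Rpl7 and Rpl10l did so in alb-SREBP-1a∆P. Each gene was read here by its chosen probe set. Rpl36a, an X-linked 60S protein at the site where spent tRNA leaves, had 10.26, 10.50 and 10.70 in alb-SREBP-1a∆P, 10.53, 10.74 and 10.96 in alb-SREBP-1a and 10.79, 11.23 and 11.38 in C57Bl6. The alb-SREBP-1a∆P arrays were all below the C57Bl6 arrays, and 5 of 8 alb-SREBP-1a arrays were. The change was -0.67 ± 0.10 in alb-SREBP-1a∆P (adjusted p = 3.67e-05), the lowest of the members, and -0.44 ± 0.09 in alb-SREBP-1a (adjusted p = 0.00528). Between the lines it was -0.23 ± 0.08 (adjusted p = 0.0275), lost after quantile normalization and cyclic loess (adjusted p = 0.30 and 0.62). Rpl9, a 60S protein beside the factor-binding site, had 10.35, 10.60 and 10.80 in alb-SREBP-1a∆P, 10.51, 10.68 and 10.78 in alb-SREBP-1a and 10.86, 11.03 and 11.20 in C57Bl6, with neither line overlapping C57Bl6. It fell by 0.43 (SE 0.08, adjusted p = 0.000282) in alb-SREBP-1a∆P and by 0.34 (SE 0.07, adjusted p = 0.00245) in alb-SREBP-1a. Its other 7 probe sets were called lower in both lines.

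Rpl10, X-linked and one of the last proteins to join the 60S subunit, had 11.97, 12.11 and 12.30 in alb-SREBP-1a∆P, 12.03, 12.32 and 12.39 in alb-SREBP-1a and 12.41, 12.46 and 12.56 in C57Bl6. Neither line overlapped C57Bl6. It changed by -0.35 ± 0.06 in alb-SREBP-1a∆P (adjusted p = 0.000255) and by -0.19 ± 0.06 in alb-SREBP-1a (adjusted p = 0.0478). The call in alb-SREBP-1a lay at the threshold and was lost under 5 of 12 alternatives: centring, cyclic loess, the replicate block, a fit on 1 probe set per gene, and leaving out alb-SREBP-1a replicates 1 and 2. Rpl7, a 60S protein that binds rRNA, had 8.94, 9.20 and 9.42 in alb-SREBP-1a∆P, 9.34, 9.55 and 9.84 in alb-SREBP-1a and 9.48, 9.73 and 9.83 in C57Bl6. It fell by 0.53 (SE 0.08, adjusted p = 4.99e-05) in alb-SREBP-1a∆P against C57Bl6, without overlap, and differed by -0.16 ± 0.08 in alb-SREBP-1a against C57Bl6 (adjusted p = 0.257). Another Rpl7 probe set was called lower in alb-SREBP-1a (-0.29, adjusted p = 0.0279), and the rest were not. Rps7, a 40S protein that binds Mdm2 when free of ribosomes, had 10.35, 10.51 and 10.60 in alb-SREBP-1a∆P, 10.56, 10.82 and 10.92 in alb-SREBP-1a and 10.61, 10.95 and 11.08 in C57Bl6. It fell by 0.42 (SE 0.08, adjusted p = 0.000308) in alb-SREBP-1a∆P against C57Bl6, where the arrays again did not overlap. The same held for Rps2, at the mRNA entry of the 40S subunit, which fell by 0.35 (SE 0.07, adjusted p = 0.000437), and for Rpl8, near the catalytic center of the 60S subunit, which fell by 0.37 (SE 0.07, adjusted p = 0.000374). The Rps2 call held under all 4 scales, and the Rpl8 call was lost after cyclic loess, at -0.11 (adjusted p = 0.233). In alb-SREBP-1a against C57Bl6 the chosen Rps2 probe set differed by -0.15 ± 0.07 (adjusted p = 0.206). Both other Rps2 probe sets were called lower there, by -0.20 and -0.39 (adjusted p = 0.0417 and 0.00125).

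Arrays of alb-SREBP-1a∆P and C57Bl6 did not overlap at all for 10 genes, 3 higher (Rps10, Rpl28 and Rpl19) and 7 lower, beside 5.34% and 6.47% of all probe sets. Those lower were Rpl36a, Rpl9, Rpl10, Rpl7, Rps7, Rps2 and Rpl8. For alb-SREBP-1a and C57Bl6 there were 2 higher (Rps10 and Rpl19) and 2 lower (Rpl9 and Rpl10), beside 2.03% and 1.03%. Between the lines there were 0 higher and 4 lower, beside 1.88% and 4.06%. All of these members lay in the brightest decile, which holds 42 members and 3556 probe sets. Of its probe sets 172 were higher and 739 lower without overlap in alb-SREBP-1a∆P against C57Bl6. In alb-SREBP-1a against C57Bl6 196 were higher and 193 lower, and between the lines 37 were higher and 366 lower.

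Those 4 genes, Rpl4, Rps4x, Rpl6 and Rps27l, were also the members that fell between the lines, lower in alb-SREBP-1a∆P, under all 4 scales, and none of them passed in alb-SREBP-1a against C57Bl6. Rpl4, whose extension lines the tunnel through which the new protein leaves, had 10.57, 10.73 and 10.83 in alb-SREBP-1a∆P and 10.995, 11.13 and 11.42 in alb-SREBP-1a, with 10.76, 11.02 and 11.32 in C57Bl6. In alb-SREBP-1a∆P it fell by 0.46 (SE 0.07, adjusted p = 0.000348) against alb-SREBP-1a and by 0.33 (SE 0.09, adjusted p = 0.0054) against C57Bl6. Rps4x, the X-linked gene of the 40S protein S4, had 10.08, 10.24 and 10.44 in alb-SREBP-1a∆P and 10.50, 10.62 and 10.84 in alb-SREBP-1a, with 10.42, 10.57 and 10.81 in C57Bl6. Its change between the lines was -0.41 ± 0.07 (adjusted p = 0.00043), and its other 4 probe sets were called lower too. Rpl6, on the outer face of the 60S subunit, had 10.88, 10.99 and 11.18 in alb-SREBP-1a∆P and 11.23, 11.33 and 11.46 in alb-SREBP-1a, with 11.07, 11.31 and 11.47 in C57Bl6. It fell by 0.32 (SE 0.06, adjusted p = 0.000909) between the lines. Rps27l, a paralogue of Rps27 that p53 induces in human cells, had 10.69, 10.91 and 11.12 in alb-SREBP-1a∆P and 11.15, 11.32 and 11.45 in alb-SREBP-1a, with 10.88, 11.19 and 11.51 in C57Bl6. The change was -0.39 ± 0.08 (adjusted p = 0.00148). In alb-SREBP-1a∆P against C57Bl6 the calls of these 4 genes were lost after cyclic loess, where Rpl4 was at -0.15, Rps4x at -0.17, Rpl6 at -0.11 and Rps27l at -0.12. After quantile normalization those of Rpl4 and Rps27l were lost too (adjusted p = 0.0527 and 0.105).

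Of 5 proteins with a known regulatory role, 3 fell in alb-SREBP-1a∆P against C57Bl6 (Rpl5, Rps3 and Rpl38) and 2 did not pass (Rps6 and Rpl10a). In that comparison 20.2% of all probe sets fell, and 47.2% of those in the brightest decile, where all 5 lie. The 3 calls were each lost after cyclic loess. Rps6, the target of S6 kinase downstream of mTORC1, had 13.00, 13.13 and 13.25 in alb-SREBP-1a∆P, 13.08, 13.20 and 13.36 in alb-SREBP-1a and 13.00, 13.21 and 13.38 in C57Bl6. Its change was -0.07 ± 0.07 in alb-SREBP-1a∆P (adjusted p = 0.413) and 0.00 ± 0.07 in alb-SREBP-1a (adjusted p = 0.989). Rpl5, which with Rpl11 carries the 5S rRNA and binds Mdm2, had 9.87, 10.43 and 10.61 in alb-SREBP-1a∆P, 10.36, 10.68 and 11.14 in alb-SREBP-1a and 10.26, 10.96 and 11.13 in C57Bl6. It fell by 0.49 (SE 0.13, adjusted p = 0.0052) in alb-SREBP-1a∆P against C57Bl6, with overlap and with 0.098 as its adjusted p after cyclic loess. In alb-SREBP-1a it differed by -0.12 ± 0.13 (adjusted p = 0.618). Another Rpl5 probe set was called lower there (-0.33, adjusted p = 0.0473), and the rest were not. Rps3, at the mRNA entry, had 9.28, 9.46 and 9.64 in alb-SREBP-1a∆P, 9.46, 9.62 and 9.94 in alb-SREBP-1a and 9.62, 9.90 and 10.10 in C57Bl6. It fell by 0.41 (SE 0.08, adjusted p = 0.000551) in alb-SREBP-1a∆P against C57Bl6, likewise lost after cyclic loess (adjusted p = 0.073). Rpl38, whose loss disturbs the axial skeleton of mice, fell by 0.16 (SE 0.06) in alb-SREBP-1a∆P (adjusted p = 0.0329), a call lost under 6 of 12 alternatives, among them quantile normalization (adjusted p = 0.555), cyclic loess (adjusted p = 0.958), the mean over its probe sets and leaving out alb-SREBP-1a∆P replicate 4. Its other 3 probe sets did not pass. Rpl10a differed by -0.09 ± 0.07 in alb-SREBP-1a∆P and by -0.06 ± 0.07 in alb-SREBP-1a (adjusted p = 0.264 and 0.658).

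No gene of the P stalk passed in any comparison by its chosen probe set on the deposited scale. Rplp0, which anchors the stalk, had 11.79, 11.83 and 12.03 in alb-SREBP-1a∆P, 11.81, 11.96 and 12.14 in alb-SREBP-1a and 11.84, 12.05 and 12.37 in C57Bl6. The change was -0.18 ± 0.08 in alb-SREBP-1a∆P (adjusted p = 0.0845) and -0.10 ± 0.09 in alb-SREBP-1a (adjusted p = 0.533). Rplp1 and Rplp2 form the flexible dimers of the stalk. They differed by 0.07 ± 0.07 and 0.19 ± 0.10 in alb-SREBP-1a∆P, and by 0.09 ± 0.08 and 0.21 ± 0.10 in alb-SREBP-1a, with overlap throughout. The other probe set of Rplp1, with a lower mean, was called higher in both lines, by 0.37 in alb-SREBP-1a∆P (adjusted p = 0.000642) and by 0.29 in alb-SREBP-1a (adjusted p = 0.0139), and the mean of both passed in alb-SREBP-1a∆P (0.22, adjusted p = 0.0157). Of the bright members Rpl21 did not pass either, with -0.17 ± 0.08 in alb-SREBP-1a∆P (adjusted p = 0.0846) and -0.11 ± 0.09 in alb-SREBP-1a (adjusted p = 0.495). By subunit, 2 of 21 genes of the 40S subunit rose and 8 fell in alb-SREBP-1a∆P against C57Bl6, 4 rose and 0 fell in alb-SREBP-1a against C57Bl6, and 0 rose and 11 fell between the lines. The 34 genes of the 60S subunit had 6 that rose and 12 that fell, 6 and 3, and 2 and 10. In the same order of comparisons 27.0%, 6.77% and 22.8% of all probe sets rose and 20.2%, 3.98% and 21.4% fell. In the brightest decile, where most members lie, 12.9%, 14.1% and 4.58% rose and 47.2%, 14.5% and 46.1% fell. The subunits were not tested against each other or against these shares.

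The paralogues that other tissues favour lay at low levels. Rpl39l, the testis-enriched relative of Rpl39, had 3.65, 3.88 and 4.14 in alb-SREBP-1a∆P, 3.28, 3.47 and 3.84 in alb-SREBP-1a and 3.14, 3.47 and 3.96 in C57Bl6. Rpl3l, of heart and skeletal muscle, had 4.77, 5.08 and 5.26 in alb-SREBP-1a∆P, 4.59, 4.79 and 5.06 in alb-SREBP-1a and 4.54, 4.82 and 5.08 in C57Bl6. Both passed as higher in alb-SREBP-1a∆P as deposited, Rpl39l by 0.35 ± 0.12 and Rpl3l by 0.25 ± 0.09 against C57Bl6 (adjusted p = 0.0297 and 0.0328), but Rpl39l was at -0.00196 and Rpl3l at -0.00571 after quantile normalization. Probe sets of like brightness had medians of 0.32 (the second decile, with Rpl39l) and 0.23 (the fourth, with Rpl3l) in alb-SREBP-1a∆P against C57Bl6. The calls against alb-SREBP-1a, 0.36 ± 0.10 and 0.25 ± 0.09, were lost under all 3 rescalings for Rpl39l, and under quantile normalization and centring for Rpl3l, which turned to -0.02 after cyclic loess. Rpl10l, which stands in for Rpl10 in mouse meiosis, had 4.55, 4.84 and 5.66 in alb-SREBP-1a∆P, 4.71, 5.27 and 5.70 in alb-SREBP-1a and 4.95, 5.66 and 6.0007 in C57Bl6. It fell by 0.62 (SE 0.18, adjusted p = 0.0104) in alb-SREBP-1a∆P against C57Bl6, where probe sets of its decile of brightness had a median of 0.18. Rps4l, a relative of Rps4x listed by RefSeq as a transcribed pseudogene, had 6.52, 6.81 and 7.18 in alb-SREBP-1a∆P, 7.03, 7.22 and 7.59 in alb-SREBP-1a and 6.89, 7.24 and 7.51 in C57Bl6. It fell by 0.36 (SE 0.10, adjusted p = 0.00938) in alb-SREBP-1a∆P against C57Bl6, a call lost after quantile normalization and cyclic loess. Rpl12 was read by a single dim probe set, with medians of 5.02 in alb-SREBP-1a∆P, 5.13 in alb-SREBP-1a and 5.10 in C57Bl6, and did not pass.

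Genes with several probe sets gave a check on the choice of 1 probe set per gene. Of the 58 genes 20 had 1 probe set and 38 had several, up to 14. The called genes had 54 further ones in alb-SREBP-1a∆P against C57Bl6, 56 in alb-SREBP-1a against C57Bl6 and 53 between the lines, and every one of them differed in the direction of its gene. No gene had probe sets called in opposite directions. These are no independent repeats: 19 of the 210 probe sets, in 5 genes, had the same 24 values as another one.

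On the deposited scale the median difference of the members from their C57Bl6 means was taken per array. It was -0.19 to -0.04 in alb-SREBP-1a∆P, -0.02 to 0.17 in alb-SREBP-1a and -0.05 to 0.07 in C57Bl6. All alb-SREBP-1a∆P arrays thus had a median below 0 on that scale, with a range that met that of C57Bl6 and did not meet that of alb-SREBP-1a. These array medians were not computed on the other scales. After cyclic loess the median change of the members was 0.020 in alb-SREBP-1a∆P against C57Bl6 and -0.012 between the lines. As deposited, all probe sets of the brightest decile had a median of -0.20 in both comparisons. The SD of a gene within genotypes had a median of 0.154 over the members, from 0.0753 in Rps13 to 0.450 in the dim Rpl14, against 0.164 over all probe sets of the brightest decile, where most members lie, and 0.236 over all probe sets.

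The sequences around the starts of 7 genes whose calls were described show whether the TOP letters stand exactly at the annotated start, and whether a common promoter motif is near it. RefSeq promoters of GRCm38.p6, 300 bases with 250 before the annotated start, were at hand for 46 of the 58 genes. Each line gives 60 bases before and 20 from the annotated start, 5′ to 3′ on the strand of the gene. Capitals mark CCGGAAG in either orientation, the core letters of an ETS-family site, and a C with at least 4 further pyrimidines that begins at the annotated start. Rps10 and Rpl28 rose in both lines, Rpl9, Rpl36a and Rpl10 fell in both, and Rpl4 and Rps4x fell between the lines.
Rps10, chr17:27635225-27635304 (- strand): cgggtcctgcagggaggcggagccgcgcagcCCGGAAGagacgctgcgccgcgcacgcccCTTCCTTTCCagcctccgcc
Rpl28, chr7:4792905-4792984 (+ strand): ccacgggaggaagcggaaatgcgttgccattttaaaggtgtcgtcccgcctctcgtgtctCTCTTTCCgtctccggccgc
Rpl9, chr5:65391412-65391491 (- strand): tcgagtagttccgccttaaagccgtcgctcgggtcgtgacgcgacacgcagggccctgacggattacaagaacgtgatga
Rpl36a, chrX:134585594-134585673 (+ strand): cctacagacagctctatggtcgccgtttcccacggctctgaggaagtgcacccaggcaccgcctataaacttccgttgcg
Rpl10, chrX:74270756-74270835 (+ strand): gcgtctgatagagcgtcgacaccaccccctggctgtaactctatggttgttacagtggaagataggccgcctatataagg
Rpl4, chr9:64173327-64173406 (+ strand): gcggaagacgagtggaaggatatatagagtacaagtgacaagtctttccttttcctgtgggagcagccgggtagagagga
Rps4x, chrX:102189372-102189451 (- strand): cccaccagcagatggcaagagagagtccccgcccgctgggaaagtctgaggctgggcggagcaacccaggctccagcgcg

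A pyrimidine tract at the annotated start stood in 10 of the 46 genes (21.7%), against 3.01% of the 27025 genes of the promoter table. Among the printed genes only Rps10 and Rpl28 had it, and only Rps10 had CCGGAAG within the printed stretch. A tract that begins before or after the annotated start was not counted. Rpl4 has such an unmarked run of pyrimidines shortly before its start, so a gene counted without the tract may still have a TOP motif. CCGGAAG in either orientation, anywhere in the 300 bases, stood in 17 of 46 genes (37.0%), against 9.93%. The pyrimidine word CTTTCC, which overlaps with such tracts, stood in 23 (50.0%, against 29.3%). CACGTG, an E-box that SREBPs and many other factors can bind, stood in 5 (10.9%, against 8.09%), and TCACCCCAC, letters of the classical sterol regulatory element, in 0 (against 0.614%). By the calls in alb-SREBP-1a∆P against C57Bl6, the tract stood in 2 of the 6 genes with a promoter that rose, 1 of the 15 that fell and 7 of the 25 that did not pass. CCGGAAG stood in 3, 5 and 9 of the same genes. These counts describe letters at annotated starts and were not tested.

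Ribosomal proteins outside the naming rule were measured for 4 of 9 genes listed. None passed in alb-SREBP-1a against C57Bl6. Rpl7l1, a relative of Rpl7, fell by 0.51 (SE 0.08, adjusted p = 6.57e-05) in alb-SREBP-1a∆P against C57Bl6 and Rps3a1, a 40S protein, by 0.30 (SE 0.12, adjusted p = 0.0476). Between the lines all 4 fell, Rps3a1 by 0.53 (SE 0.12, adjusted p = 0.00225) and Rpsa, the 40S protein that is also called the laminin receptor, by 0.37 (SE 0.09, adjusted p = 0.00454). After cyclic loess 1 of the 4 was still called in each comparison of alb-SREBP-1a∆P. Neither these genes nor the lists below were tested against probe sets of like brightness. Over all probe sets 27.0% rose and 20.2% fell in alb-SREBP-1a∆P against C57Bl6, and 22.8% and 21.4% between the lines. In alb-SREBP-1a against C57Bl6 these shares were 6.77% and 3.98%. Bright probe sets fell more often in alb-SREBP-1a∆P. In brightness deciles 8, 9 and 10, 46.1%, 53.3% and 47.2% fell against C57Bl6, and 51.6%, 62.3% and 46.1% between the lines. From 4.58% to 12.9% of these probe sets rose.

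Other TOP genes of translation, 14 measured of 16 listed, had 1 that rose and 5 that fell in alb-SREBP-1a∆P against C57Bl6, 3 and 0 in alb-SREBP-1a against C57Bl6, and 0 and 7 between the lines. Eif3e, a subunit of initiation factor eIF3, fell by 0.72 (SE 0.09, adjusted p = 1.22e-05) in alb-SREBP-1a∆P against C57Bl6 and by 0.76 (SE 0.11, adjusted p = 0.000178) against alb-SREBP-1a. Eef1a1, which brings aminoacyl-tRNA to the ribosome, fell by 0.40 (SE 0.07, adjusted p = 0.0002) in alb-SREBP-1a∆P against C57Bl6, and these calls of Eif3e and Eef1a1 held under all 4 scales. Naca, of the nascent chain-associated complex, rose by 0.31 ± 0.08 in alb-SREBP-1a (adjusted p = 0.0147), as did Pabpc1, the poly(A)-binding protein, by 0.27 ± 0.07 (adjusted p = 0.0269). After cyclic loess the list had 3 higher and 2 lower in alb-SREBP-1a∆P against C57Bl6, and its median went to 0.03 in place of -0.10. Between the lines it had 0 higher and 3 lower after quantile normalization and 1 and 2 after cyclic loess, with a median of -0.02 in place of -0.21.

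Among 10 chaperones and assembly factors of single ribosomal proteins, of 11 listed, 0 rose and 6 fell in alb-SREBP-1a∆P against C57Bl6, 0 rose and 1 fell in alb-SREBP-1a against C57Bl6, and 0 rose and 6 fell between the lines. After cyclic loess 1 rose and 5 fell in alb-SREBP-1a∆P against C57Bl6, and 1 rose and 3 fell between the lines, with a median of -0.15 in place of -0.32. Bccip, which escorts Rpl23, fell by 0.74 (SE 0.08, adjusted p = 2.31e-06) in alb-SREBP-1a∆P against C57Bl6 and by 0.72 (SE 0.11, adjusted p = 0.000236) against alb-SREBP-1a. Aamp fell by 0.58 (SE 0.08, adjusted p = 2.51e-05) in alb-SREBP-1a∆P and by 0.24 (SE 0.07, adjusted p = 0.0478) in alb-SREBP-1a, the second call being lost after centring (adjusted p = 0.0986). Ltv1, needed for the head of the 40S subunit, fell by 0.60 (SE 0.11, adjusted p = 0.000668) between the lines.

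Of 15 genes of mTORC1 and of TOP mRNA control (16 listed), 3 rose and 5 fell in alb-SREBP-1a∆P against C57Bl6, 6 rose and 1 fell in alb-SREBP-1a against C57Bl6, and 0 rose and 7 fell between the lines. Eif4ebp2, a translation repressor that mTORC1 switches off, rose by 0.89 ± 0.10 in alb-SREBP-1a∆P (adjusted p = 4.39e-06) and by 0.92 ± 0.09 in alb-SREBP-1a (adjusted p = 1.05e-05). Rheb, the small GTPase that activates mTORC1, fell by 1.08 (SE 0.10, adjusted p = 7.18e-07) in alb-SREBP-1a∆P and by 0.51 (SE 0.11, adjusted p = 0.00478) in alb-SREBP-1a, and by 0.57 (SE 0.12, adjusted p = 0.00138) between the lines. These calls of Eif4ebp2 and Rheb held under all 4 scales. Larp4, an RNA-binding protein of poly(A) tails, rose by 0.52 ± 0.09 in alb-SREBP-1a (adjusted p = 0.00165) and fell by 0.48 (SE 0.08, adjusted p = 0.000308) between the lines, the second call being lost after cyclic loess (adjusted p = 0.0568). The list's splits became 7 higher and 1 lower in alb-SREBP-1a∆P against C57Bl6 and 3 higher and 1 lower between the lines after cyclic loess, and its median between the lines turned to 0.02 in place of -0.20.

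The mitochondrial ribosome, a separate machine, translates the few proteins coded by mitochondrial DNA. Of its 77 genes 5 rose and 42 fell in alb-SREBP-1a∆P against C57Bl6 (median -0.28), 17 rose and 6 fell in alb-SREBP-1a against C57Bl6 (median 0.11), and 0 rose and 60 fell between the lines (median -0.38). After cyclic loess these splits were 11 and 22, 17 and 7, and 4 and 28, so that the medians in alb-SREBP-1a∆P stayed below 0, at -0.13 against C57Bl6 and -0.18 against alb-SREBP-1a. As deposited, 54.5% of the list fell in alb-SREBP-1a∆P against C57Bl6 and 77.9% between the lines. Over all probe sets in brightness deciles 8, 9 and 10, 46.1%, 53.3% and 47.2% fell in alb-SREBP-1a∆P against C57Bl6 (medians -0.23, -0.29 and -0.20). Between the lines 51.6%, 62.3% and 46.1% of them fell (medians -0.27, -0.31 and -0.20). In both comparisons from 4.58% to 12.9% of these probe sets rose. Mrpl36 fell by 0.91 (SE 0.08, adjusted p = 4.06e-07) and Mrpl9 by 0.94 (SE 0.09, adjusted p = 6.08e-07) in alb-SREBP-1a∆P against C57Bl6. Mrpl9 fell by 0.56 (SE 0.08, adjusted p = 0.000368) in alb-SREBP-1a too, where Mrpl37 rose by 0.37 ± 0.06 (adjusted p = 0.000618). No test set the mitochondrial genes against the cytosolic ones. Of the 2 annotated pseudogenes of ribosomal proteins with a probe set of their own, Rps19-ps3 fell by 0.41 (SE 0.12, adjusted p = 0.0083) in alb-SREBP-1a∆P against C57Bl6.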

How the data were processed

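Liver RNA (150 ng per array) of 24 mice was hybridised to Affymetrix Mouse Gene 1.0 ST arrays. As deposited, values are on the log2 scale, made by the authors with RMA in Expression Console 1.1. RMA usually normalizes arrays jointly by quantiles, but the spread of values within arrays differed between genotypes, and how that step was run is not given in the sources used here, which limits every comparison of alb-SREBP-1a∆P on the deposited scale. No depth exists for arrays, so precision rests on 8 mice per genotype. Pairs of genotypes were compared with limma 3.58.1 (R 4.3.3, lmFit and eBayes, 8 against 8 arrays), with p adjusted by Benjamini-Hochberg over 35556 probe sets and no filter. Of these, 21789 carried 1 gene symbol in the platform annotation, 1621 several and 12146 none. Named were, per comparison and direction, the 5 members of smallest p past 0.05, with the 3 brightest and 3 dimmest, the P stalk, regulatory members and paralogues. From other lists the 2 genes of smallest p per comparison were taken, and a few more, with Rps25 and Rps28, were picked after their values were seen. Members and lists were chosen with earlier results of these data known. Alternatives were quantile normalization of the deposited values, centring, cyclic loess, a filter on dim probe sets, other fits and probe set rules, and left-out arrays. Promoters came from RefSeq (GRCm38.p6), matched by symbol. The test was also run on simulated data with independent noise per probe set and no difference in scale between arrays. That run therefore cannot show how the differences in scale seen here affect the calls.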

Additional observations from a re-analysis of the deposited data

Results flagged for a closer look

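In 3 of 87 groups of 8 mice, over the 29 genes named by rule, 1 mouse stood apart from the others of its genotype by Dixon's criterion, which chance meets in about 1 in 20 groups. Rpl10 was at 12.03 in alb-SREBP-1a replicate 5, and the next mouse of that genotype was at 12.23. Rplp2 was at 5.69 in the same mouse, and the next was at 5.97. Rpl7 was at 9.48 in C57Bl6 replicate 4, and the next C57Bl6 mouse was at 9.70.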

How the results depend on the processing

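Calls depended most on the scale. In alb-SREBP-1a against C57Bl6 the lower members numbered 6 after quantile normalization, 5 after cyclic loess and 7 with dim probe sets left out, in place of 3. In alb-SREBP-1a∆P against C57Bl6 the lower members, 20 as deposited, numbered 13 after quantile normalization, 31 after centring and 7 after cyclic loess, the higher ones 3 in place of 8 after centring, and the medians were -0.027, -0.26 and 0.020. Between the lines the same scales gave 8, 45 and 5 lower in place of 21 and medians of -0.032, -0.30 and -0.012. The 2 higher members there became 1, 0 and 5, with 0 when dim probe sets were left out and 1 without alb-SREBP-1a replicates 1 and 2. The 2 are the dim Rpl39l and Rpl3l, and the cause of the other shifts was not tested. In the paired fit with a replicate block the numbers of higher and lower members were 7 and 19 in alb-SREBP-1a∆P against C57Bl6, 8 and 2 in alb-SREBP-1a against C57Bl6, and 1 and 17 between the lines. For mice of the same number the correlation of their deviations was over 0.1 in 1, 2 and 2 of 8 pairs, and at most 0.13, 0.28 and 0.16. The best match was the mouse of the same number in 3, 2 and 2 of 8 cases. Whether mice of the same number share a batch or litter cannot be told from these values. Without alb-SREBP-1a∆P replicate 4 the counts were 9 and 18 against C57Bl6, and 3 and 18 against alb-SREBP-1a.

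Values that changed sign, none of them past the threshold after the change, were these. In alb-SREBP-1a against C57Bl6 Rpl3l was at -0.0071 after quantile normalization, -0.051 with array weights and -0.0018 without alb-SREBP-1a replicates 1 and 2, Rps4l at -0.0097 and Rps6 at -0.00061 after quantile normalization. In alb-SREBP-1a∆P against C57Bl6 Rpl10a was at 0.011, Rpl39l at -0.0020 and Rpl3l at -0.0057 after quantile normalization. After cyclic loess Rpl10a was at 0.064, Rpl3l at -0.0020 and Rps6 at 0.010, and after centring Rplp1 was at -0.088. Between the lines quantile normalization gave 0.030 for Rpl10a, -0.17 for Rpl12, 0.017 for Rpl21, 0.0053 for Rpl38 and 0.0038 for Rplp1. Cyclic loess gave 0.10 for Rpl10a, -0.19 for Rpl12, 0.021 for Rpl21, 0.065 for Rpl38, -0.016 for Rpl3l, 0.030 for Rplp0, 0.043 for Rplp1 and 0.058 for Rps3. Rpl12 was at -0.11 after centring, Rplp1 at 0.019 with array weights and at 0.029 as the mean over its probe sets, and Rplp2 at 0.011 without alb-SREBP-1a replicates 1 and 2. Of the counts and medians 89 other values stayed close to the main ones. Close meant within 1.5 times for counts, and for medians a move smaller than the pooled SD between arrays of the members' median. Of the values of named members 752 kept their sign and call, while 40 further ones lost and 27 gained a call.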

Other observations

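The 3 members on the X chromosome, Rpl10, Rpl36a and Rps4x, all fell in alb-SREBP-1a∆P against C57Bl6, and were looked at together after their values were seen. Among the 44 X-linked genes of the brightest decile 4 rose and 31 fell in that comparison, with a median of -0.37, beside 457 and 1677 of 3556 probe sets and a median of -0.20 for the whole decile. Over all 742 X-linked genes the median was 0.12. The difference was not tested.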
